A study of Drosophila melanogaster with 6 samples.

Results

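The oxidative phosphorylation genes described here code for the protein subunits of the respiratory chain and of ATP synthase. They were taken as every gene in the count files whose symbol follows the naming of these subunits in Drosophila. The patterns were ND- for complex I, SdhA, SdhB, SdhC and SdhD for complex II, UQCR- for complex III, the COX gene names for complex IV and ATPsyn for complex V, with mt:ND, mt:Co, mt:Cyt-b and mt:ATPase for subunits coded in the mitochondrial genome. This choice used names only, not measured values, and it found 97 of 17471 genes, of which 84 are nuclear and 13 are mitochondrially coded. Of the nuclear genes, 63 are the reference subunits and 21 are duplicate copies, whose symbols carry an added L. The reference subunits numbered 34 in complex I, 4 in complex II, 6 in complex III, 8 in complex IV and 11 in complex V. They are spread over the genome, with 13 on chromosome arm 3L, 13 on 3R, 12 on 2L, 12 on X, 11 on 2R and 2 on chromosome 4. A few subunits with other symbols, such as blw and Cyt-c1, lie outside the naming patterns and are described apart from the members.

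Complexes I and II pass electrons from NADH and succinate to ubiquinone, complex III passes them on to cytochrome c, and complex IV passes them to oxygen. Complexes I, III and IV pump protons across the inner mitochondrial membrane, and complex V, ATP synthase, uses the resulting gradient to make ATP. All of these complexes except complex II combine nuclear and mitochondrially coded subunits, and neurons depend heavily on them to pay for ion pumping and synaptic transmission.

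The cells were adPNs, the projection neurons of the anterodorsal lineage, which receive odour information in the antennal lobe of the fly brain, at 36 to 40 h after puparium formation. There were 3 wild-type libraries and 3 libraries of acj6 mutant flies, whose titles name acj66. acj6 codes for a POU-domain transcription factor of these neurons, and the comparison asks how the transcriptomes of these neurons differ between the genotypes. The labels give neither the lesion of the allele, the driver that marked the cells, the sex nor the number of animals, and the count files also list the transgenes GAL4, flp and mCD8-GFP. A modified SMART-seq2 protocol, which amplifies full-length cDNA, was applied to total RNA, and whether replicates came from separate dissections is not stated in the labels. The p-values below therefore measure only how these libraries vary among themselves, and that variation may be technical.

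Gene counts ran from 24467328 to 38279909 per library, so 3 counts, the limit that a count of 0 allows, corresponded to between 0.0797 and 0.119 CPM (gene counts scaled to a common library total, in the usual CPM unit, after TMM scaling). acj6 (FBgn0000028) was counted at 149 ± 7.96 CPM (SD, n = 3) in wild type and at 251 ± 24.2 CPM in the mutant-labelled libraries. A count over the whole gene that is higher in the mutant-labelled libraries does not check the genotype label. Neuronal markers, of which 5 of the 6 listed genes were found, summed to between 5557 and 6031 CPM in wild type and to between 7562 and 7843 CPM in the mutant-labelled libraries. The higher sum came from brp, an active zone gene, which rose from 3795 ± 157 to 5850.0 ± 89.8 CPM (adjusted p 0.00243 in edgeR's test), while nSyb, elav, Syt1 and Snap25 had log2 fold changes of -0.15, -0.18, -0.08 and -0.22 and were not called. The 6 glial markers, all detected, summed to between 202 and 255 CPM in wild type and to between 163 and 208 CPM in the mutant-labelled libraries, with Gs2 the highest at 118 to 180.5 CPM and repo at or under 3.04 CPM. Of these wrapper was lower without overlap, at 20.7 ± 0.697 against 12.9 ± 4.19 CPM (adjusted p 0.319). The 6 hemocyte and fat body markers summed to between 4692 and 5185 CPM in wild type and to between 3884 and 5495 CPM in the mutant-labelled libraries, nearly all of it from Pxn at 3881 to 5479 CPM. Hml among them was higher without overlap, at up to 0.0365 CPM in wild type and 0.468 to 0.744 CPM in the mutant-labelled libraries (adjusted p 0.11). The rest of this list overlapped, with Pxn and srp lower and Lsp2, Fbp1 and NimC1 higher in the mean. Apart from Pxn the levels were low: srp, NimC1, Lsp2 and Fbp1 reached at most 1.93, 0.611, 10.4 and 7.23 CPM in a library. Over all tested genes 23.2% had groups that did not overlap. The 8 muscle markers, all detected, summed to between 5.37 and 15.01 CPM in wild type and to between 22.4 and 33.2 CPM in the mutant-labelled libraries. The largest rise in CPM was that of sls, at 2.91 ± 1.82 against 12.6 ± 6.89 CPM without overlap. Act88F had no count in wild type. The other muscle markers overlapped between the groups, and wupA went lower, from 0.973 to 0.422 CPM. The part of these marker levels in the values below was not tested. For the genes described here 2 libraries stood apart: wild-type replicate 1 was low for nuclear subunits with short transcripts, and mutant replicate 2 was low for mitochondrially coded genes.

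The nuclear subunit genes were among the abundant transcripts of these neurons. Of the 60 reference subunits with enough counts to be tested, 14 stood among the 100 most abundant of all tested genes by CPM per kilobase of transcript, and 47 stood among the top 500. Their median level was 371 CPM per kilobase, against 10.9 over all 9229 tested genes. The complexes differed in level, with a median of 267 CPM per kilobase in complex I, 288 in complex II, 586 in complex III, 941 in complex IV and 1159.7 in complex V. All nuclear members together took 3.15%, 3.53% and 3.77% of the gene counts in the wild-type libraries, in replicate order, and 3.49%, 3.22% and 3.46% in the mutant-labelled ones. These shares overlapped between the genotypes.

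**Figure D1:**
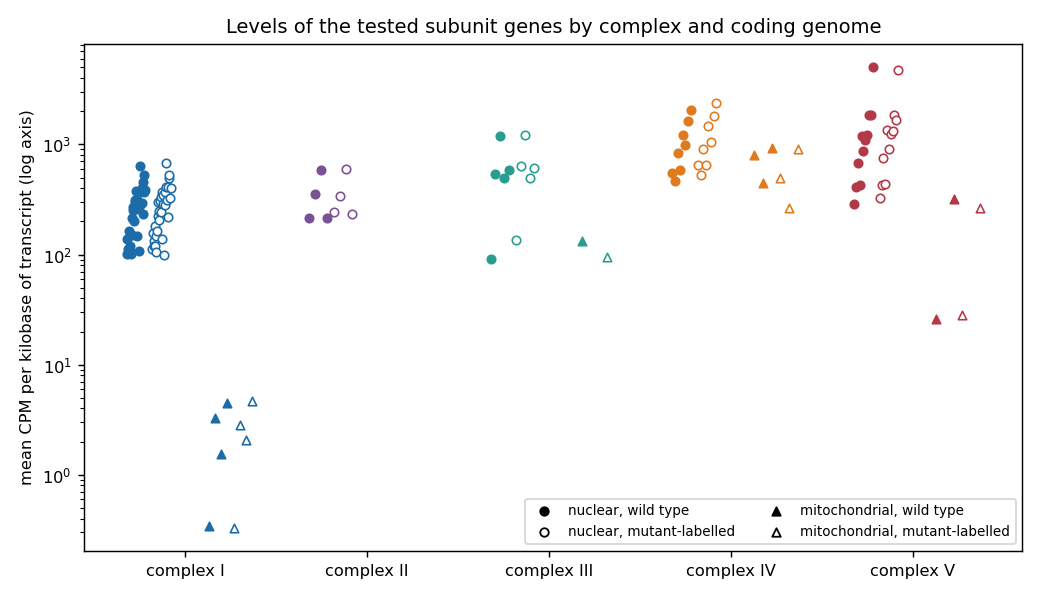
Mean level of each tested subunit gene in CPM per kilobase of transcript (log axis) by complex, with nuclear genes as circles, mitochondrially coded genes as triangles, wild type filled and mutant-labelled libraries open (mean of 3 libraries each). Nuclear subunits of complexes IV and V reach the highest levels, ATPsynC above all at 4875 CPM per kilobase over 6 libraries, and the mitochondrially coded complex I genes lie at or under 4.71 in both groups.

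No oxidative phosphorylation gene was called changed between the genotypes. The threshold was an adjusted p under 0.05 in edgeR's quasi-likelihood test, with Benjamini-Hochberg adjustment over all 9229 tested genes. Of the 75 tested members 0 met it, against 4.4% of all tested genes (3.07% higher and 1.33% lower in the mutant-labelled libraries). DESeq2 and limma-voom also called 0 of the 75. At an unadjusted p under 0.05 in edgeR's test there were 2 members, UQCR-6.4 and mt:CoIII, against 16.6% of all tested genes, and the smallest adjusted p of a member was 0.248. The 3 libraries of one genotype lay wholly above those of the other for 7 of the 75 members, or 9.33%, against 23.2% of all tested genes. A p that misses the threshold does not show that the levels were equal, but the intervals bound the difference. The 95% interval of the fold change stayed within 1.5-fold in either direction for 52 of the 60 nuclear reference subunits and within 2-fold for 59 of them, compared with 1701 and 4108 of all 9229 tested genes.

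**Figure D2:**
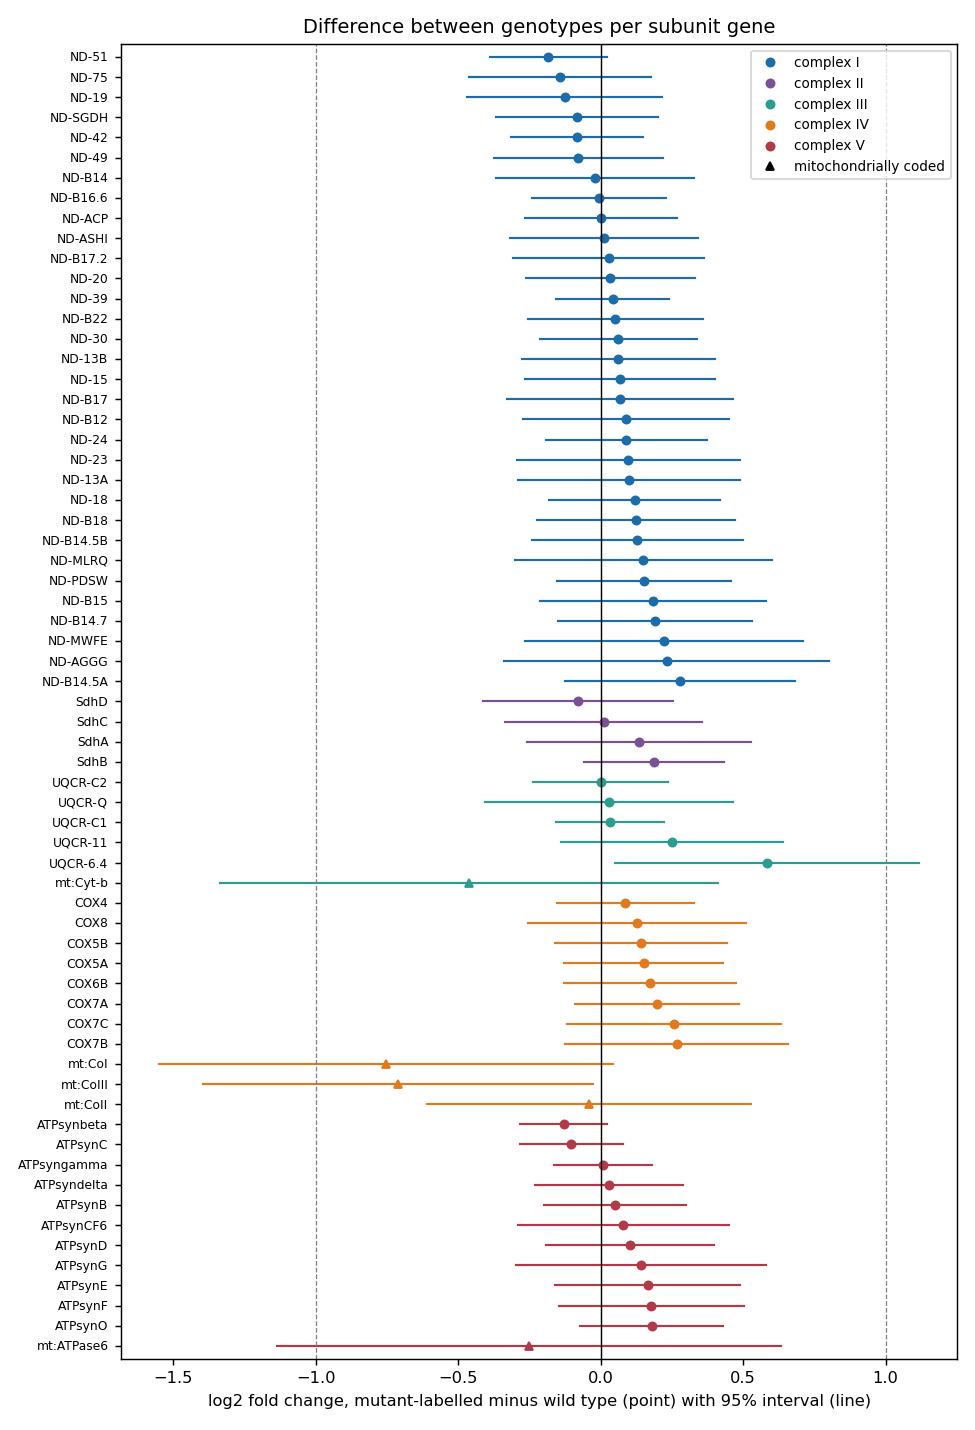
Log2 fold change (mutant-labelled minus wild type, points) with its 95% interval (lines) from edgeR's quasi-likelihood test for the 60 tested nuclear reference subunits (circles) and the 5 mitochondrially coded genes with a mean of at least 10 CPM over the 6 libraries (triangles), by complex, with dashed lines at 2-fold. Of the nuclear intervals 59 of 60 lie inside the dashed lines, and those of the mitochondrially coded genes are wider, with mt:CoI at -0.75 and mt:CoIII at -0.71.

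The nuclear estimates leaned slightly upward, and this lean rested on wild-type replicate 1. The median log2 fold change (mutant minus wild type) over the 60 reference subunits was 0.09, ranging from -0.18 to 0.58, with 49 of the 60 above 0, while the median over all tested genes was -0.01 with 49.5% above 0. By complex the medians were 0.06 in complex I (24 of 32 above 0), 0.07 in complex II (3 of 4), 0.03 in complex III (5 of 5), 0.16 in complex IV (8 of 8) and 0.08 in complex V (9 of 11). These counts leave out the subunits outside the naming patterns. Of those, Cyt-c1, blw and levy had log2 fold changes of -0.26, -0.28 and -0.01. For RFeSP, sun, ox and cype they were 0.06, 0.27, 0.30 and 0.33. Without wild-type replicate 1 the median over the reference subunits was -0.01 with 26 of 60 above 0. In that setting 6 of 8 complex IV reference subunits remained above 0. The 10 tested X-linked subunits had a median of 0.06 and the 50 autosomal ones a median of 0.09.

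Transcript length went along with this lean. Across the 60 nuclear subunits the log2 fold change correlated with transcript length at a Spearman's rho of -0.62, and all these points share the same 6 libraries. The rho was -0.27 without wild-type replicate 1, -0.38 without mutant replicate 1 and -0.84 without wild-type replicate 3. With each library's length trend removed it was -0.51, and the nuclear median was 0.10. Of these genes 48 have transcripts under 1000 bases, and their median deviation from the mean of the 6 libraries, on a log2 scale of CPM + 0.5, was -0.32 in wild-type replicate 1, 0.16 in wild-type replicate 3 and 0.14 in mutant replicate 1. The median over all 1537 tested genes with transcripts this short, which include these 48, deviated the same way, by -0.19, 0.14 and 0.09 in those libraries. The median over the 12 longer subunits stayed between -0.05 and 0.02 in every library, while single genes among them, such as SdhA, varied more. Wild-type replicate 1 held the lowest value of the 6 libraries for 47 of the 60 subunits. The median coefficient of variation over the nuclear subunits was 16.3% in wild type and 6.75% in the mutant-labelled libraries, against 21.9% and 23.5% over all tested genes.

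**Figure D3:**
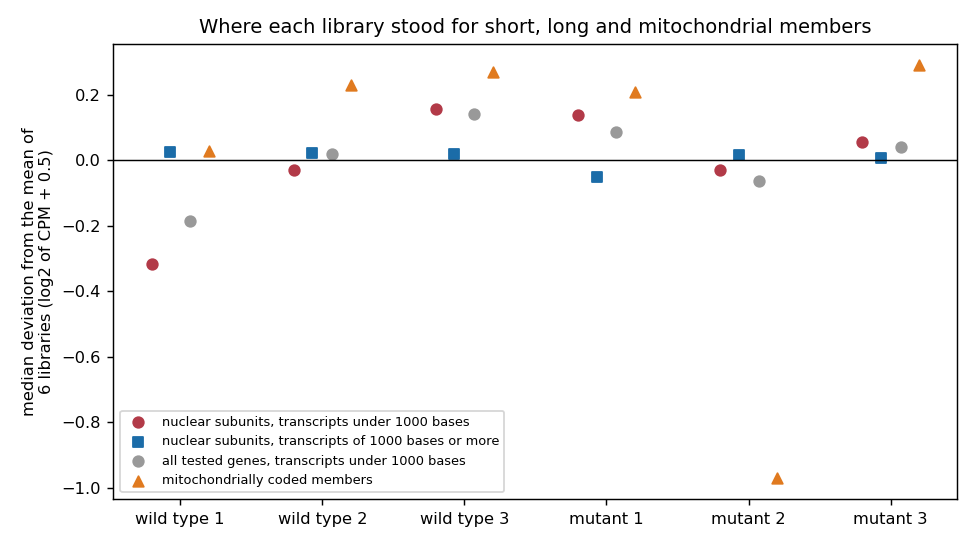
Median deviation of each library from the mean of 6 libraries, in log2 units of CPM + 0.5, for 48 short nuclear subunits (red circles), 12 long ones (blue squares), 1537 short genes of any kind (grey circles) and the 10 tested mitochondrially coded members (triangles). Short nuclear subunits sit at -0.32 in wild-type replicate 1, and mitochondrially coded members sit at -0.97 in mutant replicate 2.

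Complex I, the NADH dehydrogenase, had 34 nuclear reference subunits, and the tested 32 had log2 fold changes between -0.18 and 0.28. The accessory subunit gene ND-B12 (FBgn0034645, arm 2R) was the highest of them per length, at 655 CPM per kilobase. It was counted at 212, 263 and 328 CPM in wild type and at 305, 273 and 276 CPM in the mutant-labelled libraries (here and below in replicate order), so the groups overlapped. ND-39 (FBgn0037001, arm 3L), another accessory subunit gene, had the highest level in CPM in complex I. It was even across libraries, at 595, 606 and 604 CPM in wild type and 599.9, 651 and 608 CPM in the mutant-labelled libraries (log2 fold change 0.04 ± 0.09, SE).

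The lowest estimate among the tested nuclear reference subunits, which leave out blw and Cyt-c1, belonged to ND-51 (FBgn0031771, arm 2L). ND-51 codes for the flavoprotein that binds NADH. It was counted at 612, 556 and 584 CPM in wild type and at 503, 507 and 532 CPM in the mutant-labelled libraries. The groups did not overlap, the log2 fold change was -0.18 ± 0.09 and the adjusted p 0.357. ND-75 (FBgn0017566, X), the iron-sulphur subunit that takes electrons onward, was counted at 315, 252 and 267 CPM against 214, 262 and 279 CPM, with overlapping groups (-0.14 ± 0.14). The 7 nuclear core subunits, which carry the redox centres, had a median log2 fold change of 0.03 with 4 of 7 above 0, and the 25 tested accessory ones a median of 0.07 with 20 above 0.

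ND-B14.5A (FBgn0025839, X), an accessory subunit gene, had the highest estimate in complex I. Its levels were 62.8, 91.0 and 84.4 CPM in wild type and 101, 86.3 and 101 CPM in the mutant-labelled libraries, which overlapped (0.28 ± 0.18, adjusted p 0.502). ND-B14.7 (FBgn0034576, arm 2R), an accessory subunit of the membrane arm, was named after its values were seen because its groups did not overlap. It was counted at 71.0, 69.8 and 84.8 CPM in wild type and at 84.9, 84.9 and 87.5 CPM in the mutant-labelled libraries, so that wild-type replicate 3 lay just under the mutant values (0.19 ± 0.15, adjusted p 0.598).

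Complex II, succinate dehydrogenase, is coded by nuclear genes alone, and its 4 subunits were all tested. SdhA (FBgn0261439, arm 2R), the flavoprotein that oxidises succinate, was counted at 694, 577 and 439 CPM in wild type and at 592, 732 and 554 CPM in the mutant-labelled libraries. The spread within wild type exceeded the difference between the genotypes (log2 fold change 0.13 ± 0.17). SdhC (FBgn0037873, arm 3R), a membrane anchor and the highest of the complex per length at 592 CPM per kilobase, gave 367, 472 and 542 CPM against 519.8, 419 and 454 CPM (0.01 ± 0.15). SdhB (FBgn0014028, arm 2R), the iron-sulphur subunit, was named after its values were seen, since its groups did not overlap. It gave 282, 255 and 246 CPM in wild type and 295, 284 and 312 CPM in the mutant-labelled libraries, and the highest wild-type value lay close under the lowest mutant one (0.19 ± 0.11, adjusted p 0.454). SdhD, the other anchor, had a log2 fold change of -0.08 ± 0.15.

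Complex III, the cytochrome bc1 complex, had 5 tested nuclear members, with a median log2 fold change of 0.03. UQCR-Q (FBgn0036728, arm 3L) was the highest per length at 1205 CPM per kilobase and varied with the library, from 557 to 936 CPM in wild type and from 660.0 to 923 CPM in the mutant-labelled libraries (0.03 ± 0.19). UQCR-C1 (FBgn0038271, arm 3R), a core protein of the complex, was steadier, at 953, 989 and 892 CPM against 983, 949 and 969 CPM (0.03 ± 0.08). UQCR-6.4 (FBgn0034245, arm 2R), a small accessory subunit, was counted at 29.4, 44.0 and 47.0 CPM in wild type and at 73.0, 52.3 and 55.3 CPM in the mutant-labelled libraries. Its groups did not overlap, and its log2 fold change of 0.58 ± 0.24 was the highest among nuclear reference subunits (adjusted p 0.248 in edgeR's test, 0.11 to 0.517 over the alternatives). Exons of POSH cover 40.5% of its exonic bases, and the strand setting of the counting is not given in the sources used here, so its count is uncertain. Other members share this uncertainty, among them ATPsyndelta and ND-MWFE, where exons of other genes cover 35.6% and 35.0% of the exonic bases.

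Complex IV, cytochrome c oxidase, had 8 nuclear members, all tested, with log2 fold changes from 0.09 to 0.27 and none called. COX7A (FBgn0040529, arm 3R) was the highest at 2228 CPM per kilobase. It was counted at 1005, 1260.1 and 1429.96 CPM in wild type and at 1503, 1366 and 1371 CPM in the mutant-labelled libraries, and wild-type replicate 1 alone lay far below the rest (0.20 ± 0.13, adjusted p 0.498). COX7B (FBgn0040793, arm 3L) gave 393, 512 and 633 CPM against 703, 545 and 603 CPM (0.27 ± 0.17). COX7C (FBgn0040773, arm 2R) gave 233, 279 and 349.8 CPM against 395, 306 and 329 CPM (0.26 ± 0.17). All 3 are small nuclear subunits around the mitochondrially coded core, their groups overlapped, and wild-type replicate 1 was the lowest library for each.

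Complex V, ATP synthase, held the most abundant members. ATPsynC (FBgn0039830, arm 3R), the subunit of the proton-driven c-ring, was counted at 6864, 7406 and 7520.5 CPM in wild type and at 6737, 6151 and 7409 CPM in the mutant-labelled libraries. The groups overlapped and the log2 fold change was -0.10 ± 0.08, with a 95% interval of the fold from 0.822 to 1.06. ATPsynbeta (FBgn0010217, chromosome 4), the catalytic subunit, was named after its values were seen because its groups did not overlap. Its levels were 3839, 3710.1 and 3603 CPM in wild type and 3313, 3555 and 3324 CPM in the mutant-labelled libraries (-0.13 ± 0.07, adjusted p 0.393). The 3 members matched by name in the catalytic head and its central stalk had a median log2 fold change of 0.01. They were ATPsynbeta at -0.13, ATPsyngamma at 0.01 and ATPsyndelta at 0.03. This median leaves out blw at -0.28 and sun at 0.27, subunits of the same part outside the naming patterns. The median was 0.09 for the 4 stator subunits and 0.17 for the 3 membrane subunits of the dimer region.

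**Figure D4:**
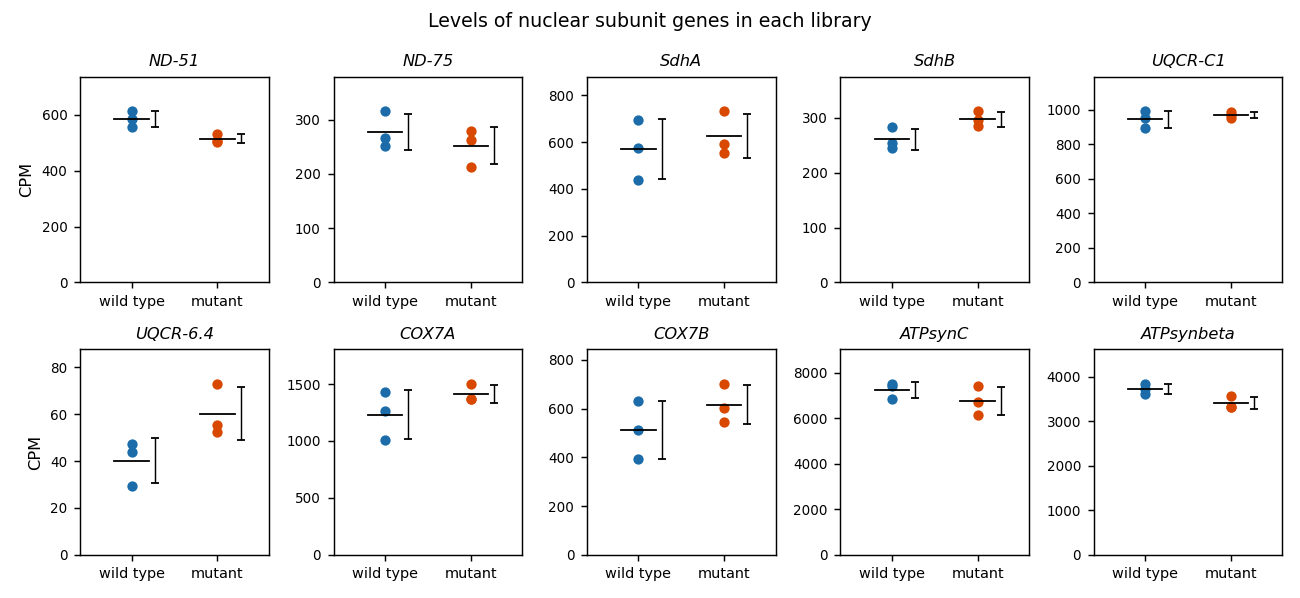
CPM in each library for 10 nuclear subunit genes, 2 from each complex, in 3 wild-type (blue) and 3 mutant-labelled (orange) libraries, with lines at the group means and bars of ± 1 SD; every axis starts at 0. The groups overlap for ND-75, SdhA, UQCR-C1, COX7A, COX7B and ATPsynC and are separate for ND-51, SdhB, UQCR-6.4 and ATPsynbeta, where the separation is narrow.

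Mitochondrially coded subunit genes took less of the raw gene counts in the mutant-labelled libraries, most of all in mutant replicate 2. The 13 genes together made up 0.226%, 0.240% and 0.251% of the gene counts in wild type (0.239% ± 0.0127, SD, n = 3) and 0.204%, 0.0814% and 0.222% in the mutant-labelled libraries (0.169% ± 0.0765). These raw shares did not overlap between the groups, although the highest mutant share lay just under the lowest wild-type one. The mutant mean without replicate 2 was 0.213%. After TMM scaling the summed CPM of the 13 genes did overlap, with mutant replicate 3 above wild-type replicate 1. By complex, only the complex IV sums stayed separate. They were 1883 to 2038 CPM in wild type and 726 to 1820 CPM in the mutant-labelled libraries. Mutant replicate 2 held the lowest value for 9 of the 10 tested genes. The median coefficient of variation over these genes was 11.8% in wild type and 47.9% in the mutant-labelled libraries. Alignments set aside as not unique were also fewer in every mutant-labelled library than in any wild-type one. They numbered 3.21 to 4.16 per gene count in wild type and 2.189 to 2.95 in the mutant-labelled libraries, with mutant replicate 2 the lowest. The part of this difference in the lower mitochondrially coded share was not tested. In bulk samples, fewer cells rich in a transcript and less of that RNA per cell cannot be told apart.

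The genes fell into an abundant and a scarce class. mt:CoII reached 918 CPM per kilobase, mt:CoIII 651, mt:CoI 355, mt:ATPase6 292 and mt:Cyt-b 114, and mt:ATPase8 was at 27.1. mt:ND4, mt:ND1, mt:ND5 and mt:ND2, which code for complex I subunits, had 4.59, 3.06, 1.80 and 0.335 CPM per kilobase. mt:ND3 had at most 5 counts in a library, mt:ND4L at most 2 and mt:ND6 at most 3, and these did not pass the filter on low counts. The nuclear complex I subunits, at a median of 267 CPM per kilobase, were thus far above the mitochondrially coded ones in these files. Reads that align to more than 1 place were not counted, so levels of mitochondrial genes with like copies elsewhere in the genome are uncertain.

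**Figure D5:**
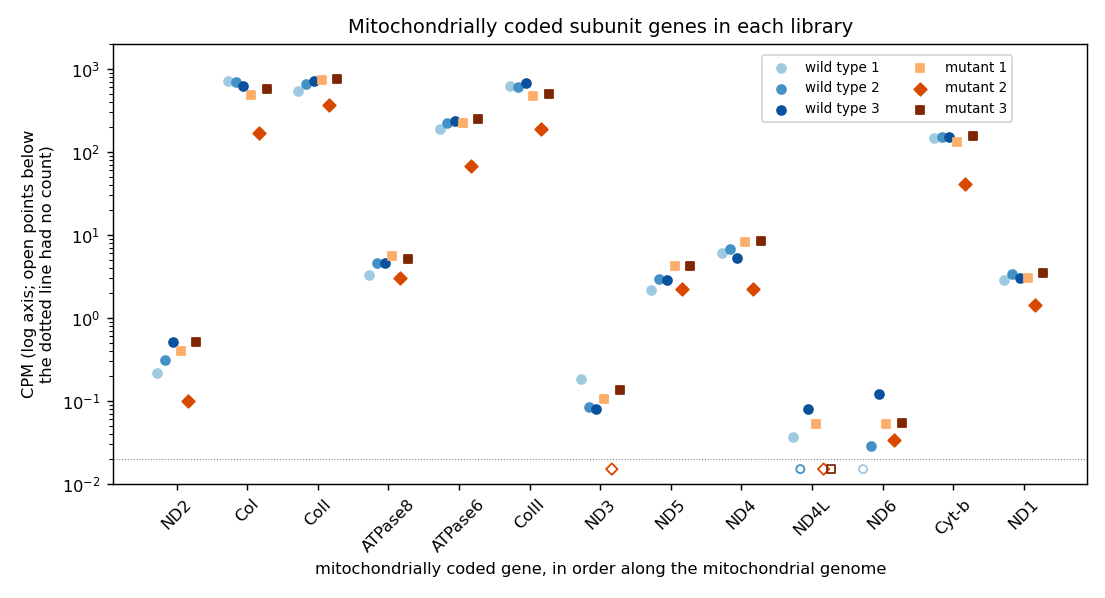
CPM (log axis) of the 13 mitochondrially coded subunit genes in each of the 6 libraries, in their order along the mitochondrial genome, with libraries without a count shown as open points under the dotted line. mt:CoI, mt:CoII, mt:ATPase6, mt:CoIII and mt:Cyt-b are abundant, the mt:ND genes are scarce, and mutant replicate 2 lies lowest for most genes.

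mt:CoI (FBgn0013674) and mt:CoIII (FBgn0013676), core subunits of cytochrome c oxidase, showed the lowest estimates among the mitochondrially coded genes. mt:CoI was counted at 721, 703 and 632 CPM in wild type and at 480.5, 171 and 567 CPM in the mutant-labelled libraries. Every mutant value was below every wild-type one, mutant replicate 2 by far the most, and the log2 fold change was -0.75 ± 0.35 (adjusted p 0.328). mt:CoIII was counted at 624, 607 and 682 CPM against 474, 190.2 and 504 CPM, again without overlap (-0.71 ± 0.30, adjusted p 0.276). Without mutant replicate 2 the log2 fold changes were -0.39 ± 0.12 for mt:CoI and -0.38 ± 0.10 for mt:CoIII, with adjusted p-values of 0.167 and 0.128 in edgeR's test.

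mt:CoII (FBgn0013675), the third core subunit of the same enzyme, did not follow them. It was counted at 539, 651 and 724 CPM in wild type and at 746, 365 and 749 CPM in the mutant-labelled libraries (-0.04 ± 0.25), so that only mutant replicate 2 lay below the wild-type range. The ratio of mt:CoI to mt:CoII counts was 1.34, 1.08 and 0.872 in wild type and 0.644, 0.469 and 0.757 in the mutant-labelled libraries. The ratio of mt:CoIII to mt:CoII was 1.16, 0.933 and 0.942 in wild type and 0.635, 0.522 and 0.672 in the mutant-labelled libraries. The ratio of mt:Cyt-b to mt:CoII was 0.269, 0.234 and 0.209 in wild type and 0.174, 0.114 and 0.206 in the mutant-labelled libraries. None of these 3 ratios overlapped between the groups, and mutant replicates 1 and 3 lay below all wild-type libraries as well, for mt:Cyt-b narrowly in replicate 3. The ratio of mt:ATPase6 to mt:CoII overlapped, at 0.337 ± 0.0121 in wild type and 0.273 ± 0.0773 in the mutant-labelled libraries. The ratios share mt:CoII as their denominator, so they are not separate observations. The genes have 1536 bases for mt:CoI, 789 for mt:CoIII, 1137 for mt:Cyt-b and 685 for mt:CoII. The part of length in the ratios was not tested. These ratios were examined after the values, including those of mt:CoII, were seen and carry no test.

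The remaining mitochondrially coded genes overlapped between the groups. mt:Cyt-b (FBgn0013678), the core of complex III, gave 145, 152 and 152 CPM in wild type and 129.8, 41.6 and 155 CPM in the mutant-labelled libraries (-0.46 ± 0.39, and -0.07 without mutant replicate 2). mt:ATPase6 (FBgn0013672), the channel subunit beside the c-ring, gave 186, 223 and 234 CPM against 224, 67.6 and 249 CPM (-0.25 ± 0.39, and 0.14 without mutant replicate 2). Over all 10 tested genes the median log2 fold change was -0.13 with 3 above 0, and without mutant replicate 2 it was 0.19 with 7 above 0. The scarce genes had intervals too wide to place them, as for mt:ND1 at -0.22 ± 0.67, mt:ND2 at -0.04 ± 1.18, mt:ND4 at 0.08 ± 0.58, mt:ND5 at 0.43 ± 0.64 and mt:ATPase8 at 0.14 ± 0.55.

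Most duplicate copies were hardly counted in these neurons. Many such copies of subunit genes are known in Drosophila for expression in the testis. Of the 21 copies, 16 did not pass the filter, and none of these had more than 7 counts in a library. COX5BL and COX6AL2 among them had no count, and exons of other genes overlap theirs. Trmt6 on the opposite strand covers COX5BL wholly, and genes on the same strand cover 67.0% of the exonic bases of COX6AL2. The counts of these copies were not read as their expression. The 5 that passed reached means of at most 2.48 CPM: ATPsynepsilonL had 1.82 to 3.14 CPM in wild type and 1.32 to 3.01 CPM in the mutant-labelled libraries, with overlapping groups. COX7AL and COX4L had no count in mutant replicate 3 and up to 1.93 and 0.985 CPM elsewhere. ATPsynbetaL had no count in wild-type replicate 1 and up to 1.30 CPM in mutant replicate 3, and ND-B14.5AL had 6 to 49 counts per library. Their log2 fold changes, from -1.10 to 1.85, were not called.

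In all, 22 members failed the filter and 8 of these had no count in any library. Besides the copies and the 3 mitochondrial genes, these included 3 reference subunits. ND-MNLL (X) and UQCR-14 (X) had no count, and ND-B8 (arm 2L) had 0 to 8 counts. The exons of ND-MNLL are wholly covered by exons of CG45089 on the same strand, which had no count either. Those of UQCR-14 are wholly covered by exons of CG32576 on the opposite strand, which had 889 to 1553 counts. Of 70 protein-coding genes covered in this opposite-strand way 67 had no count in any library, or 95.7%, and of 297 covered on the same strand 289 had none, or 97.3%, against 11.5% of 9066 genes without exon overlap. The counts of ND-MNLL and UQCR-14 were not read as their expression.

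Subunits outside the naming patterns and the genes that serve the system gave few calls. Among 8 tested further subunits and cytochrome c genes, 0 were called, against 4.4% of all tested genes, and the median log2 fold change was 0.02. At that share a count of 0 in a list this small is no result about the list, and the same holds for the other small lists below. blw (FBgn0011211), the alpha subunit of ATP synthase that pairs with ATPsynbeta, was counted at 3923, 3656 and 3547 CPM in wild type and at 2822, 3281 and 3089.8 CPM in the mutant-labelled libraries. The groups did not overlap, with a log2 fold change of -0.28 ± 0.08 and an adjusted p of 0.102, and it was called in 1 alternative, with the length trend removed (adjusted p 0.0452). Cyt-c1 (FBgn0035600), the cytochrome of complex III that hands electrons to cytochrome c, was named after its values were seen. It gave 1081, 1089.9 and 1113 CPM against 912, 915 and 923 CPM, close within each group and without overlap (-0.26 ± 0.08, adjusted p 0.113).

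Among inner membrane carriers and porin, 0 of 11 tested genes were called and the median log2 fold change was -0.21. The most abundant of these was porin (FBgn0004363), the outer membrane channel for ADP and ATP, at 1082, 1064 and 1103 CPM in wild type and 906, 847 and 963 CPM in the mutant-labelled libraries (-0.26 ± 0.09, adjusted p 0.149, no overlap). Of 14 tested assembly factors 0 were called (median 0.06), of 9 genes for mitochondrial DNA maintenance and transcription 0 (median -0.04), of 15 for mitochondrial dynamics and transport 0 (median -0.04), and of 70 mitochondrial ribosomal protein genes 0 (median 0.04). The most abundant of each, Scox for copper delivery to complex IV, TFAM, which packages mitochondrial DNA, Phb2, a prohibitin of the inner membrane, and mRpS30, had log2 fold changes of -0.01, 0.02, 0.11 and 0.44. At an unadjusted p under 0.05 in edgeR's test there were 2 of the further subunits, 1 carrier, 0 assembly factors, 0 genes for mitochondrial DNA, 3 for dynamics, 2 ribosomal proteins and 3 regulators, against 16.6% of all tested genes. mRpS30 (adjusted p 0.0989 in edgeR's test) was called by DESeq2 with an adjusted p of 0.0157.

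The regulators of nuclear genes for mitochondrial proteins held the 1 called gene of these lists, with 1 higher and 0 lower of 7 tested and a median log2 fold change of -0.14. Dref (FBgn0015664), a zinc-finger factor known from flies for driving replication genes and also genes for mitochondrial proteins, rose in the mutant-labelled libraries. It was counted at 96.0, 81.9 and 87.0 CPM in wild type and at 260.2, 377 and 251 CPM in the mutant-labelled libraries, far apart, with a log2 fold change of 1.75 ± 0.18 and an adjusted p of 0.00243. The summed muscle markers moved in the same direction as Dref, from at most 15.01 to at least 22.4 CPM. Most of these markers overlapped between the groups and wupA went lower. Their part in the rise of Dref was not tested. crc, the fly ATF4 and the most abundant regulator in the list, went from 260.1 ± 29.4 to 236 ± 13.6 CPM (-0.14 ± 0.12). srl, the fly homologue of PGC-1, was named after its values were seen; it gave 16.9 ± 4.82 against 6.17 ± 1.65 CPM without overlap (-1.46 ± 0.38, adjusted p 0.0751).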

How the data were processed

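The authors deposited raw, whole-number read counts for each gene, in a file for each library. HTSeq 0.11.2, STAR 2.5.4 and bcl2fastq 2.19.0.316 are listed in the submitters' processing notes. Build, annotation and strand setting were not given in the sources used here. Each file held 17575 entries; 96 spike-ins, 3 transgenes and the counter's summary entries were left out of library sizes and tests, and reads outside genes, 8.59% to 10.9% of the gene counts, were not used.

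Symbols, chromosome arms, exon overlaps and transcript lengths (median over a gene's transcripts) were looked up by identifier in the BDGP6.54 models of Ensembl 115. Symbols were found for 17242 genes and not for 229, and a length for 98.5% of tested genes. Genotype came from the labels.

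Genes passing edgeR's filterByExpr (9229) were scaled with TMM and tested with edgeR 4.0.16's quasi-likelihood test in R 4.3.3 on genotype over 6 libraries, two-sided, with Benjamini-Hochberg adjustment over all tested genes. CPM means are ± SD and log2 fold changes ± SE. The code was tested on simulated data. Alternatives were other scalings, filters, DESeq2 1.42.0, limma-voom (limma 3.58.1), removal of each library's length trend, a replicate block and leaving out each library. The reads carry no molecular identifiers, so floors cover counting error only.

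The members and lists were chosen with earlier results of these data known. Named genes were all mitochondrially coded members, in each complex the highest nuclear member per kilobase and by CPM, called members, the 5 tested nuclear members at each end of the log2 fold changes, each pathway list's called and most abundant genes, and acj6. Markers were named after their values were seen. Cyt-c-p is not analysed here.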

Additional observations from a re-analysis of the deposited data

How the results depend on the processing

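No member was called in the main test or in any of 15 alternatives, whose smallest adjusted p was 0.0861 (DESeq2, mt:CoIII). Over all genes the count of calls was 406, and it was 940 with DESeq2 and between 143 and 249 when 1 library was left out. Higher genes were 283 of 406 calls, and 173 of 329 once each library's length trend was removed. The nuclear median log2 fold change lay between 0.04 and 0.19 in the alternatives other than leaving out wild-type replicate 1, where it was -0.01, and the mitochondrially coded median between -0.46 and -0.10 in those other than leaving out mutant replicate 2, where it was 0.19. The mitochondrially coded share in wild type was 0.276% with the 10 most abundant nuclear genes left out of the denominator. Of 37 named genes with a fit, acj6 lost its call without wild-type replicate 2 (adjusted p 0.0658), blw and mRpS30 gained one in 1 alternative each, Dref was called throughout (adjusted p from 6.29e-19 to 0.0168), and the uncalled estimates of 14 changed sign in some setting. With the replicate number as a block, 293 genes and 0 members were called and the nuclear median was 0.10. Deviations of same-numbered libraries from their group means correlated at 0.02, 0.00 and 0.05. With 3 libraries in a group this cannot show whether same-numbered libraries were prepared together, and the labels do not say. mt:ND3, mt:ND4L and mt:ND6, with at most 5 counts per library, were too low to compare, and the cause of their low counts was not tested.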

Other observations

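Genes for the shape and movement of mitochondria gave the following values, and none of them was called in edgeR's test. fzo, a mitofusin known in Drosophila for its role in sperm mitochondria, averaged 2.26 CPM in wild type and 0.381 CPM in the mutant-labelled libraries (log2 fold change -2.56, adjusted p 0.237). Drp1, the dynamin-related gene of mitochondrial fission, averaged 236 and 183 CPM (-0.36, adjusted p 0.219). milt, the adaptor that links mitochondria to kinesin, averaged 28.3 and 42.1 CPM (0.57, adjusted p 0.195). These 3 were named after their values were seen.

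The large ribosomal RNA of the mitochondrion was counted at 18.0 to 22.1 CPM in wild type and at 16.3 to 28.9 CPM in the mutant-labelled libraries, with mutant replicate 2 the lowest. Adding both mitochondrial ribosomal RNA genes to the mitochondrially coded share gave means of 0.241% in wild type and 0.172% in the mutant-labelled libraries.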
